A study of Homo sapiens with 18 samples.

Results

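The comparison described is the knockdown of FOXO3 in Namalwa, a Burkitt lymphoma cell line, read across all 15365 genes of its deposited table. Its members were taken as every row of that table, which covers 6 of the 18 libraries of the study. Namalwa is an established line from a B cell tumour and carries Epstein-Barr virus (EBV). The other 12 libraries come from BL-41 and Jiyoye, a pair of further Burkitt lymphoma lines treated in the same way, and serve here only for reference. The first group holds 3 libraries of Namalwa cells that received a lentivirus (pRSI12-U6-sh-UbiC-TagRFP) that expresses a short hairpin RNA (shRNA) directed at FOXO3. The second group holds 3 libraries of Namalwa cells that received the same vector with a scrambled shRNA. Both groups are therefore transduced cells of 1 line. They grew in RPMI1640 with serum, and transduced cells were sorted on day 4. The labels do not give the hairpin's sequence, and they leave unsaid whether each triplicate stands for its own culture. The p-values then measure the spread between these libraries alone, which may be technical.

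FOXO3 is a forkhead transcription factor that binds DNA and switches on genes of cell cycle arrest, cell death, autophagy and stress resistance. The kinase AKT phosphorylates it and keeps it outside the nucleus, so that growth signals hold it inactive. In B cells FOXO factors take part in development and in the germinal centre, the site where B cells mutate and select their antibody genes and from which Burkitt lymphoma is thought to arise. Burkitt lymphoma carries a translocation that drives the MYC oncogene.

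The deposited table gives 1 normalised value per arm, and values of single libraries were not analysed here. An arm value carries the authors' moderation of the fold change, so no SD between libraries can be given. The error of each log2 fold change is a standard error (SE), worked back from the deposited fold change and its p-value. Positive log2 fold changes mean a higher value in the knockdown arm. A gene was called when the authors' DESeq2 test gave an adjusted p under 0.05, and "rose" and "fell" are used of called genes only. The arm values summed to 1.81e+07 with scrambled and 1.83e+07 with FOXO3 shRNA in the authors' deposited table.

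FOXO3 itself fell, and no other FOXO gene was called. FOXO3 (chromosome 6, 108559825 to 108684774, GRCh38.p14) had a value in the authors' deposited table of 850.5 with scrambled and 398.4 with FOXO3 shRNA. On the log2 scale FOXO3 changed by -1.09 (recovered SE 0.16, adjusted p = 2.49e-09 by DESeq2), so the control level was 2.13-fold the knockdown level in the authors' deposited table. FOXO1 (-0.10), FOXO4 (-0.34) and FOXO6 (-0.06) were not called in the authors' deposited table, with adjusted p-values of 0.77, 0.274 and 0.892 by DESeq2. Of 22 genes of the FOXO family and of regulators of FOXO3, FOXO3 was the only one called, while 1 was higher and 3 were lower at an unadjusted p under 0.05. The kinase genes AKT1 (0.11) and AKT2 (0.09) and the nuclear export gene XPO1 (0.24) were among those not called in the authors' deposited table.

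Over the whole transcriptome more genes fell than rose, and most changes were small. Of 15365 genes, 985 were called (6.41%), 400 up (2.6%) and 585 down (3.81%). Among the 9671 genes with a mean of the arm values of at least 100, 929 were called (9.61%), 372 up (3.85%) and 557 down (5.76%). Only 63 called genes changed by 1 or more on the log2 scale (0.41%), 36 up (0.234%) and 27 down (0.176%). The median size of a called change was 0.48, with medians of 0.42 for rises and -0.53 for falls, and the smallest called change was 0.24 in size. The median over all genes was -0.0011, and 0.0044 over those with a mean of at least 100. Genes with low values were seldom called: 1 of 3786 with a mean under 10, and 55 of 1908 with a mean from 10 to 100. Their median SE was 0.25 and 0.33, against 0.15 for means from 100 to 1000 and 0.11 for means from 1000 to 10000. The median transcript length of the genes that rose was 2820 bases and of those that fell 3140 bases, against 2943 for all genes.

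**Figure D1:**
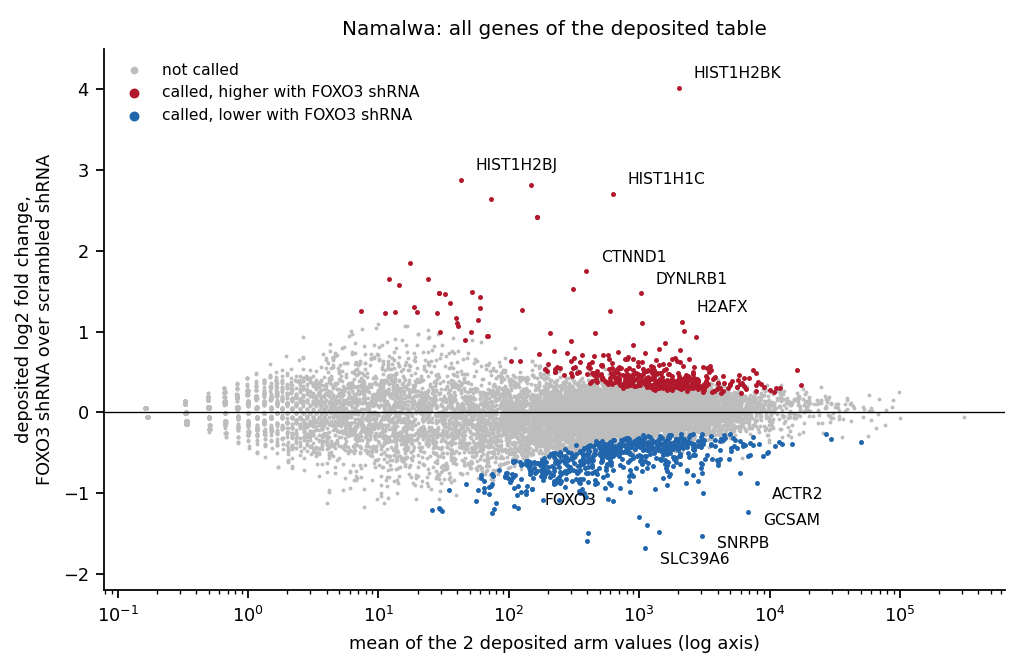
Each point is 1 of 15365 genes, with the mean of the 2 deposited arm values on a log axis and the deposited log2 fold change on the vertical axis. Red points are the 400 genes called higher and blue points the 585 called lower with FOXO3 shRNA; the rises above 2 are all histone genes.

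Histone transcripts held the largest rises. Histones are the spools around which DNA is wound, and replication-dependent histone genes are normally switched on in S phase. Their messages usually end in a stem-loop in place of a poly(A) tail, so oligo-dT libraries read only their polyadenylated forms. Of 64 such genes measured, 17 rose, 0 fell (26 and 0 at an unadjusted p under 0.05), and 47 were not called by DESeq2. Since 3 pairs of copies share 1 value each, these are 15 of 61 distinct measurements. The rate among all genes was 2.6% up and 3.81% down. Their median log2 fold change was 0.46, against -0.0011 for all genes, and 57 of the 64 were above 0. By family, 7 of 16 H2B, 5 of 16 H2A, 3 of 14 H4, 1 of 12 H3 and 1 of 6 H1 genes rose.

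The stretches before the start sites of 5 histone genes, and the stretch between the starts of a divergent pair, are shown so that promoters with and without 2 known histone promoter words can be set beside the changes. Each is in lower case, 5′ to 3′ on the strand of the gene, with the octamer word ATTTGCAT (a site of the factor OCT1) and the TATA box word TATAAA in capitals, on either strand. They are from RefSeq, GRCh38.p14. HIST1H2BK (chr6:27146859-27146978, minus strand) had the largest rise, and HIST1H2BJ (chr6:27132796-27132915, minus strand) and HIST2H2BE (chr1:149886683-149886802, minus strand) also rose. HIST1H2BM (chr6:27814902-27815021, plus strand) holds the octamer and was not called. HIST1H1C (chr6:26056471-26056590, minus strand) rose and holds neither word here. HIST1H2BC and HIST1H2AC (chr6:26123927-26124171, plus strand) lie back to back and both rose.
HIST1H2BK: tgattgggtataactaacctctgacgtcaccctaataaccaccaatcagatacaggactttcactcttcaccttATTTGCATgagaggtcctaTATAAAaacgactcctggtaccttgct
HIST1H2BJ: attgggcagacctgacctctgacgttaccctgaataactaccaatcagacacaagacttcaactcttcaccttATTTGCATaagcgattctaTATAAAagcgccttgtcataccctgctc
HIST2H2BE: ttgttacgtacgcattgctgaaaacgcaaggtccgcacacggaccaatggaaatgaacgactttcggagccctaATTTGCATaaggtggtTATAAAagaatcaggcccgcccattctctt
HIST1H2BM: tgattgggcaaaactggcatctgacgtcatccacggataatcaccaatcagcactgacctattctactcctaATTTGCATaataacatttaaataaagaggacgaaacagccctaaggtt
HIST1H1C: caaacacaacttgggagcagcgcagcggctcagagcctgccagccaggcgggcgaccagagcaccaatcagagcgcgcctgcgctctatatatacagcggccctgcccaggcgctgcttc
HIST1H2BC/HIST1H2AC: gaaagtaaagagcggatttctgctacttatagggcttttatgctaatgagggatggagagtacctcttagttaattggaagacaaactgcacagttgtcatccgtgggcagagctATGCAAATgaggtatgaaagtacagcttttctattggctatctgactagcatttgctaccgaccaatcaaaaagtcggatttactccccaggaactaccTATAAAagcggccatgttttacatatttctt

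The octamer was far more frequent in histone promoters than in promoters at large, and it was found both in histone genes that rose and in those not called. A promoter of 250 bases before to 50 after the start was matched by gene ID for 12360 of the 15365 genes and 59 of the 64 histones. The octamer, searched on both strands, was in 23 of 59 histone promoters (39.0%), against 1.80% of 27305 promoters of all genes and 1.62% of those tested. It was in 7 of 17 histone genes that rose and 16 of 42 that were not called. Among H2B genes these counts were 5 of 7 and 7 of 9, and among H2A genes 2 of 5 and 8 of 10, and the differences were not tested. Divergent partners start at most 247 bases apart, so their windows overlap. A word between such starts counts for both genes, and these counts are not all separate. The TATAAA word was in 11 of 17 and 27 of 42, against 12.0% of all promoters and 7.07% of those tested. The forkhead word GTAAACA was in 0 of 59 histone promoters, against 3.41% of all promoters and 2.39% of those tested. The count of 0 says only that these letters are not in this window.

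HIST1H2BK, an H2B gene, went from 236.4 with scrambled to 3811 with FOXO3 shRNA in the authors' deposited table. This 16.1-fold rise (log2 4.01, recovered SE 0.12, adjusted p = 1.72e-224 by DESeq2) was the largest of any gene in the authors' deposited table. HIST1H1C, a linker histone gene, went from 167.4 to 1088 in the authors' deposited table, up by 2.70 on the log2 scale (recovered SE 0.36, adjusted p = 4.83e-11 by DESeq2). HIST1H2BD went from 36.69 to 256.7 (2.81, recovered SE 0.24) and HIST2H2BE from 159.5 to 457.6 (1.52, recovered SE 0.38) in the authors' deposited table. The values of HIST2H2AA3 and HIST2H2AA4 both went from 52.15 to 279.3 in the authors' deposited table, but they are identical copies that share reads, so each is uncertain. HIST1H2BD, HIST2H2AA3 and HIST2H2AA4 passed the limit of 100 on the mean only through the knockdown arm.

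The 11 other histone genes that rose had means from 12.0 to 72.6, below the limit of 100 for the largest changes, and were chosen after their values were seen. HIST1H2BJ went from 10.23 to 75.26 (log2 2.88, recovered SE 0.34, adjusted p = 6.23e-15 by DESeq2) in the authors' deposited table. HIST1H2AC went from 20.05 to 125.1 (2.64, recovered SE 0.27) and its divergent partner HIST1H2BC from 11.52 to 36.22 (1.65, recovered SE 0.38) in the authors' deposited table. HIST1H2BO (1.85), HIST1H4H (1.65), HIST3H2BB (1.57), HIST3H2A (1.43), HIST1H3H (1.25) and HIST1H2AM (1.17) rose as well in the authors' deposited table. HIST2H4A and HIST2H4B shared the value of 1.48 in the authors' deposited table and are identical copies, so each is uncertain.

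Histone genes in close pairs did not always move together. Pairs were sought among the 59 of 64 histone genes with a matched promoter, so any pair with an unmatched member is missing. There were 11 pairs that start within 1000 bases of each other on opposite strands, 193 to 247 bases apart, with HIST1H2BF in 2 of them. Both members rose in 3 of these pairs, 1 member in 2 and neither in 6. The pairs in which both rose were HIST1H2BC with HIST1H2AC, HIST1H2AM with HIST1H2BO, and HIST3H2A with HIST3H2BB. HIST1H2BJ rose by 2.88, while its partner HIST1H2AG had 0.47 (adjusted p = 0.546 by DESeq2) in the authors' deposited table. HIST2H2BE rose by 1.52, while its partner HIST2H2AC had -0.28 (adjusted p = 0.852 by DESeq2) in the authors' deposited table. Differences within pairs were not tested.

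The histone genes that rose and those not called had similar median lengths. The median deposited transcript length was 487 bases in the 17 that rose and 459 in the other 47. In the scrambled arm alone, the genes that rose had a median value of 20.05, with a range from 5.81 to 236.4. Those not called had a median of 12.7 and a range from 0.17 to 45.4, so the levels of both sets overlapped only in part. The lowest mean of the arm values was 12.0 among the genes that rose and 0.17 among those not called. Of all genes with a mean under 10, 1 of 3786 was called, so histone genes at such values had little prospect of a call. Summed over the 64 genes, the histone value was 1463 with scrambled and 7539 with FOXO3 shRNA, of which HIST1H2BK gave 236.4 and 3811 in the authors' deposited table.

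**Figure D2:**
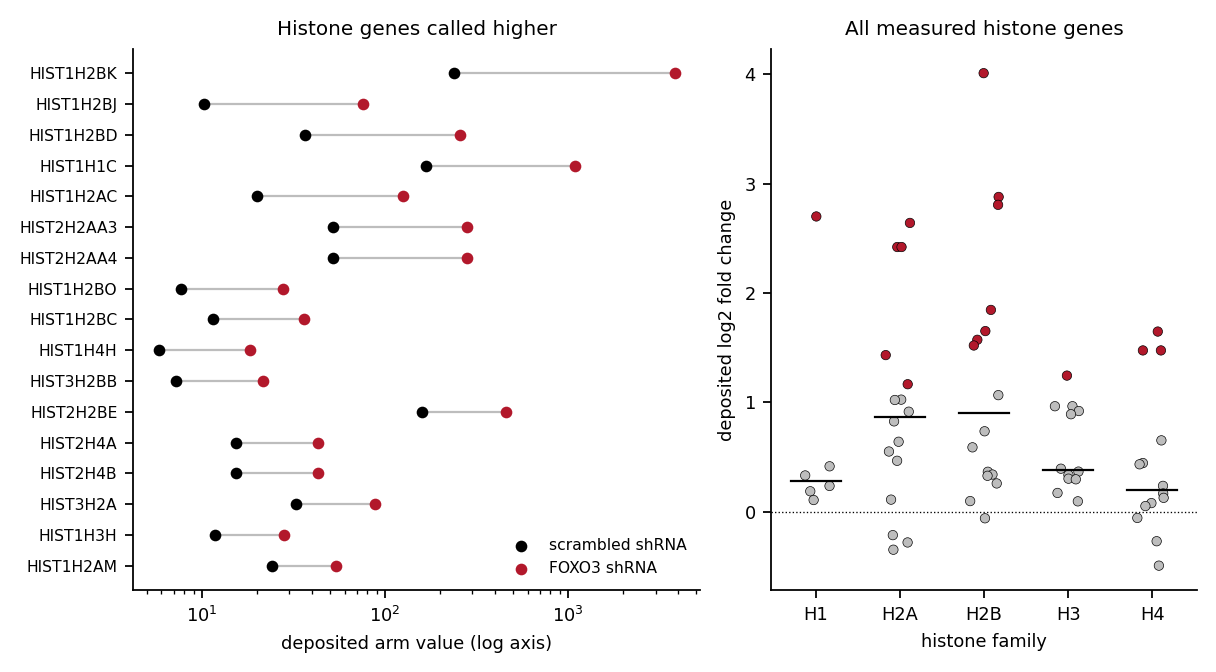
The left panel gives the deposited arm values of the 17 histone genes called higher, on a log axis, with scrambled shRNA in black and FOXO3 shRNA in red. The right panel gives the deposited log2 fold change of all 64 measured genes by family, with called genes in red, others in grey and a bar at the family median; the H2A and H2B medians are 0.87 and 0.90, above those of H1 (0.28), H3 (0.38) and H4 (0.20).

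Replacement histones, many but not all of which are made throughout the cell cycle from polyadenylated messages, gave 1 rise in 13 genes. Of all genes 2.6% rose, and 3.85% did where the mean reached 100. H2AFX, the H2A variant that is phosphorylated at DNA breaks, went from 1337 to 2905 in the authors' deposited table (log2 1.12, recovered SE 0.13, adjusted p = 3.63e-16 by DESeq2). H2AFZ (-0.01), H2AFV (-0.0032), H3F3A (0.01) and H3F3B (-0.04) were not called in the authors' deposited table. Among genes with a mean of at least 100, 5.76% fell. Of 20 genes of histone message processing and histone supply, all with such a mean, 0 rose (3 at an unadjusted p under 0.05) and 1 fell by DESeq2. The gene that fell was LSM11, a subunit of the U7 particle that cuts histone messages, at -0.58 (recovered SE 0.14, adjusted p = 0.00149 by DESeq2) in the authors' deposited table. The stem-loop binding gene SLBP (0.23) and the histone locus gene NPAT (0.10) were not called in the authors' deposited table.

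Established FOXO targets were called in both directions, at shares near those of all genes. Of 50 measured genes listed as direct FOXO targets, 2 rose, 3 fell and 45 were not called by DESeq2, and the list's median was -0.07. These are 4% up and 6% down, against 2.6% and 3.81% of all genes. ULK1, the kinase that starts autophagy, went from 585 to 810.2 in the authors' deposited table (log2 0.47, recovered SE 0.11, adjusted p = 0.00172 by DESeq2). DEPP1, a FOXO-induced regulator of autophagy, went from 36.04 to 79.25 in the authors' deposited table (1.14, recovered SE 0.28, adjusted p = 0.00174 by DESeq2). The genes that fell were RBL2, a pocket protein of the retinoblastoma family, KLF6, a zinc finger factor, and MXI1, an antagonist of MYC. Their log2 fold changes in the authors' deposited table were -0.54, -0.39 and -0.43, with recovered SEs of 0.17, 0.12 and 0.14 and adjusted p-values of 0.03, 0.026 and 0.0301 by DESeq2. The cell death gene BCL2L11 (0.19) and the germinal centre repressor BCL6 (-0.34) were not called in the authors' deposited table. The forkhead word GTAAACA was in the promoters of 7 of 331 genes that rose (2.11%) and 7 of 479 that fell (1.46%), against 2.39% of those tested.

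Outside the histone genes, the largest rise was that of CTNND1, which codes for p120 catenin, a protein of cell junctions. It went from 180.1 to 604.1 in the authors' deposited table (log2 1.75, recovered SE 0.20, adjusted p = 2.26e-15 by DESeq2). DYNLRB1, a light chain of the dynein motor, went from 547.8 to 1520 in the authors' deposited table (1.47, recovered SE 0.12, adjusted p = 2.84e-29 by DESeq2). LGALS3BP, a secreted galectin-binding glycoprotein, went from 74.47 to 178.4 (1.26) and HSD17B10, a mitochondrial dehydrogenase, from 663 to 1427 (1.11) in the authors' deposited table. With 74.47 in the scrambled arm, LGALS3BP passed the limit on the mean only through the knockdown arm. TNRC18, a chromatin-associated protein, rose by 1.01 and SNX15, a sorting nexin of endosomes, by 0.98 in the authors' deposited table. The read-through genes NME1-NME2 (1.26) and BORCS8-MEF2B (0.98) also rose in the authors' deposited table. They share sequence with NME1 (0.22), NME2 (0.18), BORCS8 (-0.30) and MEF2B (0.02), none of which was called in the authors' deposited table, so these rises are uncertain. These 8 genes had adjusted p-values from 2.84e-29 to 9.19e-07 by DESeq2.

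The largest falls among genes with a mean of at least 100 were led by SLC39A6, RAB4B and SNRPB. SLC39A6, a zinc importer, went from 1695 to 528.8 in the authors' deposited table (log2 -1.68, recovered SE 0.12, adjusted p = 9.08e-38 by DESeq2). RAB4B, a GTPase of endosome recycling, went from 594.1 to 197.1 in the authors' deposited table (-1.59, recovered SE 0.15). SNRPB, a core Sm protein of the spliceosome, went from 4517 to 1565 in the authors' deposited table (-1.53, recovered SE 0.14, adjusted p = 1.39e-25 by DESeq2). RNASEK, a membrane ribonuclease of the proton pump, fell by 1.49 and UBE2Z, a ubiquitin-conjugating enzyme, by 1.48 in the authors' deposited table. PDXP, the pyridoxal phosphatase, fell by 1.40 and FGFRL1, a decoy receptor for fibroblast growth factors, by 1.29 in the authors' deposited table. In BL-41 and Jiyoye, SLC39A6 had -1.30 and -1.32, RAB4B -2.05 and -1.26, and SNRPB -1.80 and -1.89 in the authors' deposited tables. RNASEK had -1.71 and -1.50, UBE2Z -1.30 and -1.58, PDXP -1.42 and -1.41, and FGFRL1 -2.24 and -1.62 in the authors' deposited tables. FOXO3 itself had -0.79 and -0.30 there, and was not called in Jiyoye. Whether these falls follow from less FOXO3 was not tested.

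The next largest falls followed from GCSAM to FUNDC2. GCSAM, a signalling adaptor of germinal centre B cells, went from 9600 to 4073 in the authors' deposited table (-1.24, recovered SE 0.13, adjusted p = 9.05e-18 by DESeq2). CCDC9B (-1.18), GIPR, a gut hormone receptor (-1.16), B4GALT6, an enzyme of glycolipid synthesis (-1.09), MPI, the mannose phosphate isomerase (-1.08), and FUNDC2 (-1.05) fell in the authors' deposited table. RASA4B fell by 1.09 in the authors' deposited table, but it is a near copy of RASA4 (-0.17, not called), so its change is uncertain. Under the same limit on the mean, FOXO3 itself was among the 15 largest falls, at -1.09 in the authors' deposited table.

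**Figure D3:**
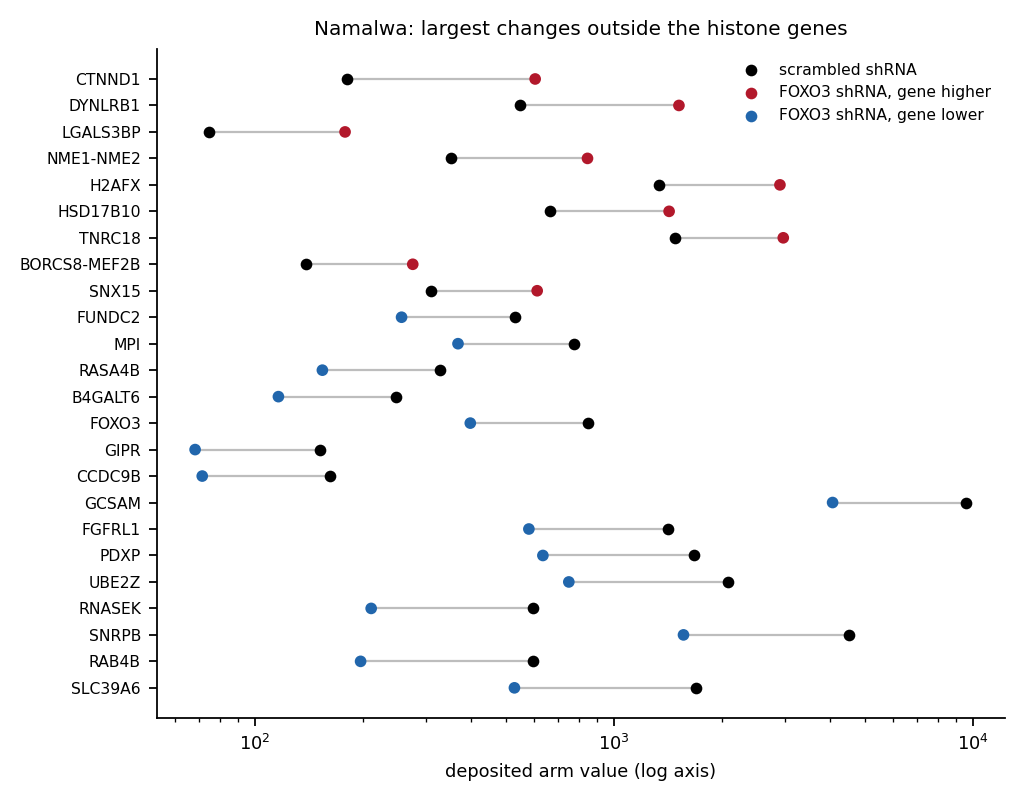
Each line joins the deposited arm values of 1 gene on a log axis, with scrambled shRNA in black and FOXO3 shRNA in red or blue. The 9 genes at the top are the largest rises outside the replication-dependent histones and the 15 at the bottom the largest falls, all called and with a mean that reached 100, from CTNND1 (180.1 to 604.1) to SLC39A6 (1695 to 528.8). LGALS3BP passed that limit on the mean only through the knockdown arm.

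Of the 10 genes with the highest means among those called with a change of at least 0.5 in size, 2 rose and 8 fell, GCSAM among them. That limit lies between the median size of called rises (0.42) and that of called falls (-0.53), so it favours falls. Without it, 6 genes rose and 7 fell where the mean reached 10000, and 229 rose and 223 fell from 1000 to 10000. SET, a histone chaperone and phosphatase inhibitor, went from 13278.5 to 19078 in the authors' deposited table (log2 0.52, recovered SE 0.07, adjusted p = 1.07e-09 by DESeq2). SRM, the spermidine synthase, rose from 6160 to 8824 in the authors' deposited table (log2 0.52, DESeq2 adjusted p = 0.0227). ACTR2, a subunit of the ARP2/3 complex that branches actin, went from 10368 to 5671 in the authors' deposited table (-0.87, recovered SE 0.08, adjusted p = 7.86e-24 by DESeq2). TMEM123, a cell surface mucin (-0.74), KHDRBS1, an RNA-binding protein (-0.57), and NUCKS1, a chromatin protein (-0.55), fell in the authors' deposited table. MKNK2, a kinase of the translation factor eIF4E (-0.54), SLC25A3, the mitochondrial phosphate carrier (-0.52), and HDGF, a growth factor (-0.50), also fell in the authors' deposited table.

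Of the genes of the plasma cell programme, which turns B cells into antibody-secreting cells, some fell and none rose. Of 21 genes, 9 fell, 0 rose (10 and 0 at an unadjusted p under 0.05) and 12 were not called by DESeq2. The median was -0.38 against -0.0011 for all genes, of which 3.81% fell. TNFRSF17, the receptor BCMA, went from 328.7 to 197.3 in the authors' deposited table (-0.74, recovered SE 0.17, adjusted p = 0.000623 by DESeq2). MZB1, an endoplasmic reticulum chaperone of antibody chains, went from 2301 to 1506 in the authors' deposited table (-0.61, recovered SE 0.14, adjusted p = 0.000713 by DESeq2). IRF4, a transcription factor needed for plasma cells, went from 2948 to 2210 (-0.42, recovered SE 0.11) and the ectoenzyme gene CD38 from 5882 to 4211 (-0.48, recovered SE 0.14) in the authors' deposited table. DERL3 (-0.56), FKBP11 (-0.53), PIM2 (-0.52), EAF2 (-0.52) and CREB3L2 (-0.38) fell too in the authors' deposited table. Unlike IRF4, the transcription factor genes PRDM1 and XBP1 were not called. PRDM1 had -0.45 (adjusted p = 0.321 by DESeq2) and XBP1 0.01 (adjusted p = 0.98 by DESeq2) in the authors' deposited table. JCHAIN, which joins antibody units, had -0.05 and was not called in the authors' deposited table. In bulk libraries, fewer cells of a kind and less RNA per cell cannot be told apart.

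Other B cell genes fell in small numbers, and none rose. Of 30 genes that mark B cells or signal from their receptor, 4 fell and 0 rose (7 and 1 at an unadjusted p under 0.05 by DESeq2), with a median of -0.07. Of all genes 3.81% fell, and 5.76% did where the mean reached 100. SPIB, an ETS factor of B cells, went from 2899 to 1764 in the authors' deposited table (-0.72, recovered SE 0.15, adjusted p = 0.000182 by DESeq2). The signalling adaptor gene BLNK (-0.31) and the tetraspanin gene CD37 (-0.35) were among the others that fell in the authors' deposited table. Of 24 germinal centre genes, 3 fell and 0 rose (4 and 1 at an unadjusted p under 0.05 by DESeq2). These were GCSAM, given above, the chemokine receptor gene CXCR4 (-0.44, from 6439 to 4747) and ELL3, an elongation factor (-0.63), in the authors' deposited table. The transcription factor genes BACH2 (-0.02) and MEF2C (0.08) were not called in the authors' deposited table.

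Antigen presentation genes fell where they were called, and 3.81% of all genes fell. Of 22 genes of MHC class I presentation, 5 fell and 0 rose (7 and 1 at an unadjusted p under 0.05 by DESeq2), with a median of -0.04. HLA-E, the ligand of an inhibitory receptor of natural killer cells, went from 4946 to 3156 in the authors' deposited table (-0.65, recovered SE 0.13, adjusted p = 2.62e-05 by DESeq2). ERAP1, a peptide-trimming enzyme (-0.43), HLA-B (-0.39) and TAPBP, the peptide loading factor tapasin (-0.35), were among the others that fell in the authors' deposited table. HLA-C (-0.05) and the light chain gene B2M (-0.04) were not called in the authors' deposited table, and HLA genes resemble each other closely enough to share reads. Of 18 genes of MHC class II presentation, 3 fell and 0 rose (8 and 0 at an unadjusted p under 0.05 by DESeq2), with a median of -0.22 and 1 of 18 above 0. The invariant chain gene CD74 went from 56276 to 43618.5 in the authors' deposited table (-0.37, recovered SE 0.10, adjusted p = 0.00824 by DESeq2). HLA-DRA (-0.37) and HLA-DOA (-0.51) fell with it in the authors' deposited table, while their activator CIITA had -0.01 and was not called.

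Interferon-stimulated genes gave 6 falls and 1 rise among 55 measured (11 and 2 at an unadjusted p under 0.05 by DESeq2), with a median of -0.05. The shares among all genes were 3.81% for falls and 2.6% for rises. MX2, an antiviral GTPase, went from 1751 to 909.3 in the authors' deposited table (-0.95, recovered SE 0.13, adjusted p = 3.47e-10 by DESeq2). IFI44L went from 3663 to 2030 in the authors' deposited table (-0.85, recovered SE 0.13, adjusted p = 4.99e-08 by DESeq2). TRIM22 (-0.54), the signalling factor genes STAT2 (-0.51) and IRF7 (-0.46) and the viral RNA sensor gene OAS2 (-0.33) fell in the authors' deposited table. LGALS3BP (1.26) was the gene that rose in the authors' deposited table. Of 22 activation genes that EBV can induce, 4 fell and 0 rose (5 and 2 at an unadjusted p under 0.05 by DESeq2). NOTCH2, a receptor of cell fate (-0.67), FCER2, which codes for CD23 (-0.46), CD70 (-0.39) and the factor gene RUNX3 (-0.37) fell in the authors' deposited table. Of 38 genes of NF-kB, 0 rose and 0 fell by DESeq2, against 2 and 5 at an unadjusted p under 0.05.

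**Figure D4:**
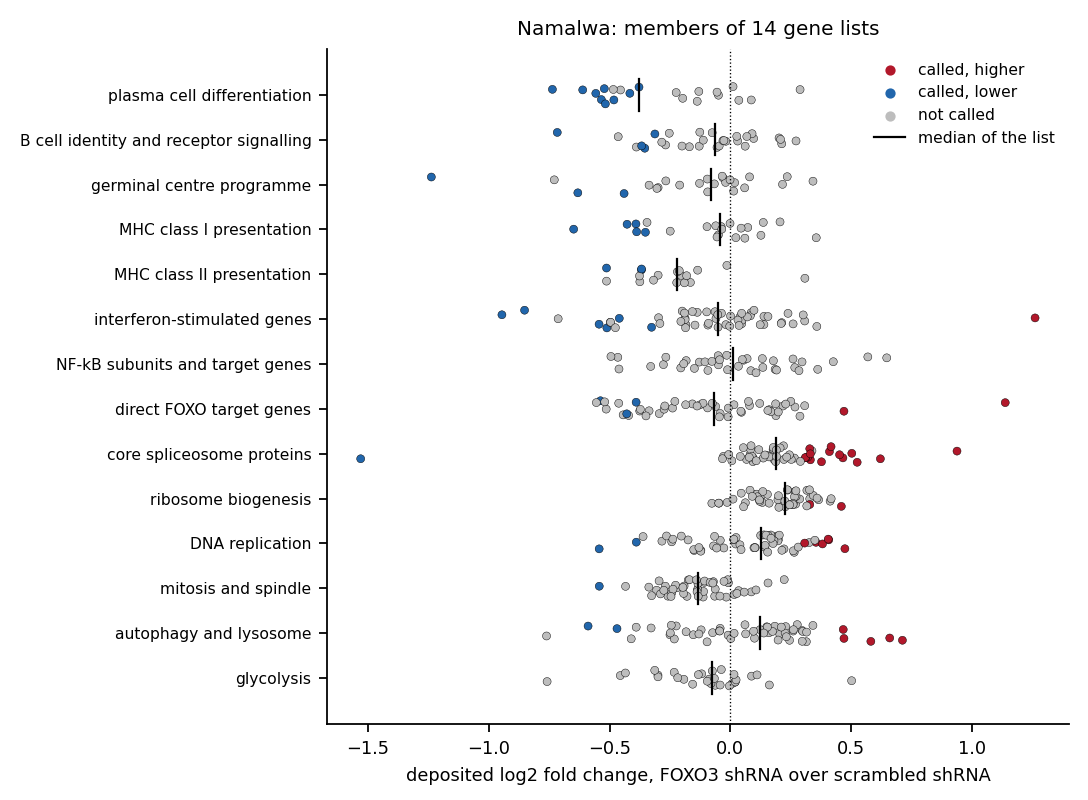
Each point is the deposited log2 fold change of a member of 1 of 14 gene lists, in red or blue where called and grey where not, with a bar at the list's median. The plasma cell list lies lowest with a median of -0.38, ribosome biogenesis highest with 0.23, and SNRPB stands apart at -1.53 from the other spliceosome genes, whose highest member is SNRPA1 at 0.94.

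Where genes of the spliceosome, which removes introns, were called, all rose but SNRPB. Of 53 core spliceosome genes, 15 rose, 1 fell and 37 were not called by DESeq2, with a median of 0.19 and 49 of 53 above 0. Genes with a mean of at least 100, as all 53 are, rose in 3.85% of cases and fell in 5.76%. SNRPA1, a protein of the U2 particle, went from 1883 to 3605 in the authors' deposited table (0.94, recovered SE 0.09, adjusted p = 3.25e-22 by DESeq2). PRPF3 (0.62, from 1613 to 2479) and PRPF4 (0.52, from 1279 to 1840), partners in the U4/U6 particle, rose in the authors' deposited table. BUD31 (0.45) and the helicase genes DDX46 (0.50), DHX38 (0.42) and DDX23 (0.38) rose as well in the authors' deposited table. The helicases, and OAS2 and ATG2A elsewhere, lie outside the naming rule and were chosen after their values were seen. SNRPB, at -1.53, was the only core gene that fell there, and it codes for the Sm ring protein shared by most of these particles.

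Few translation genes were called, at shares near the 3.85% up and 5.76% down of genes whose mean reached 100. Of 50 genes of ribosome biogenesis, 2 rose and 0 fell (22 and 0 at an unadjusted p under 0.05 by DESeq2), with a median of 0.23 and 46 of 50 above 0. GNL3, the nucleolar protein nucleostemin, rose by 0.33 and LTV1, a factor of the small subunit, by 0.46 in the authors' deposited table. Of 79 cytosolic ribosomal protein genes, 1 rose and 2 fell by DESeq2, with a median of 0.11. FAU rose by 0.32, while RPL29 (-0.40) and RPL11 (-0.27) fell in the authors' deposited table. Of 37 aminoacyl-tRNA synthetase genes, which load amino acids onto tRNA, 1 rose and 2 fell by DESeq2, with YARS at 0.24 and NARS at -0.34 in the authors' deposited table.

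Genes of DNA replication were called in both directions, and 1 gene of mitosis was called. For reference, 3.85% of genes with a mean of at least 100 rose and 5.76% fell. Of 57 replication genes, 6 rose and 2 fell by DESeq2, with a median of 0.12. ORC3, a subunit of the origin recognition complex (0.47), GINS1 of the replicative helicase (0.41), POLE3 (0.40) and the helicase gene MCM2 (0.35) rose in the authors' deposited table. RRM2, the small subunit of ribonucleotide reductase, went from 2421 to 1662 in the authors' deposited table (-0.54, recovered SE 0.15, adjusted p = 0.00601 by DESeq2), and POLD3 fell by 0.39. Of 50 genes of mitosis and the spindle, 0 rose and 1 fell (1 and 13 at an unadjusted p under 0.05 by DESeq2), with a median of -0.14 and 8 of 50 above 0. SPC24, a kinetochore protein, was the gene that fell, at -0.54 in the authors' deposited table. Of 31 genes of G1 progression, only RBL2 was called by DESeq2, and it fell.

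MYC was not called, and few genes of p53, cell death and survival were, beside 6.41% of all genes. MYC had 18985 with scrambled and 21130 with FOXO3 shRNA in the authors' deposited table, or 0.15 on the log2 scale (recovered SE 0.12, adjusted p = 0.589 by DESeq2). Its antagonists MXD3 (-0.87, from 287.7 to 157.4) and MXI1 (-0.43) fell in the authors' deposited table, and the other 10 of 12 genes of the network were not called. Of 28 p53 pathway genes, 0 rose and 1 fell (2 and 3 at an unadjusted p under 0.05 by DESeq2). That gene was BTG2, an antiproliferative factor, which went from 3657 to 2358 in the authors' deposited table (-0.63, recovered SE 0.12, adjusted p = 9.26e-06 by DESeq2). Of 19 genes of the BCL2 family, BCL2L13 fell by 0.40 in the authors' deposited table and none rose by DESeq2 (2 at an unadjusted p under 0.05). BCL2 (-0.13), MCL1 (-0.26), BAX (0.16) and PMAIP1 (0.08) were not called in the authors' deposited table. Of 30 genes of caspases and death receptors, GSDMD, the pore-forming gasdermin, fell by 0.43 in the authors' deposited table and no other was called.

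Genes of autophagy and of the lysosome were called in both directions. Of 55 measured, 5 rose, 2 fell and 48 were not called by DESeq2, with a median of 0.12, while 2.6% of all genes rose and 3.81% fell. ATG9A, the lipid scramblase of autophagy, went from 1146 to 1714 in the authors' deposited table (0.58, recovered SE 0.10, adjusted p = 6.5e-07 by DESeq2). ATG4D, a protease of ATG8 proteins (0.71), ATP6V0D1, a subunit of the lysosomal proton pump (0.66), ULK1 (0.47) and the lipid transfer gene ATG2A (0.47) rose in the authors' deposited table. ATG16L2 (-0.59) and the lysosomal glucosidase gene GAA (-0.47) fell in the authors' deposited table. Whether the share that rose differs from that of other genes was not tested.

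The shares called in the stress and metabolic lists were all below the 9.61% of genes whose mean reached 100. Most members of each list had such a mean. Beside the 6.41% of all genes, the shares lay on either side. Of 39 genes of the integrated stress response, only ASNS, the asparagine synthetase, was called by DESeq2, and it fell by 0.40 in the authors' deposited table. Of 27 heat shock genes, HSPA14 rose by 0.49 in the authors' deposited table, and none fell (0 at an unadjusted p under 0.05 by DESeq2). Of 48 genes of the endoplasmic reticulum and secretion, SRP14 rose by 0.38, and DERL3 (-0.56), DNAJC3 (-0.53) and ATF6B (-0.39) fell in the authors' deposited table. Of 76 nuclear genes of oxidative phosphorylation, 3 rose and 2 fell by DESeq2, with NDUFS6 at 0.48 and NDUFB5 at -0.42 in the authors' deposited table. Of 30 glycolysis genes 0 rose and 0 fell by DESeq2, against 1 and 3 at an unadjusted p under 0.05. Of 37 genes of cholesterol and fatty acid synthesis, 0 rose (1 at an unadjusted p under 0.05) and 3 fell by DESeq2, with MSMO1 at -0.68 and ELOVL5 at -0.65 in the authors' deposited table. TXN2, the mitochondrial thioredoxin, rose by 0.31 in the authors' deposited table as the only one of 33 antioxidant genes called.

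Signalling, chromatin and traffic genes gave scattered calls, to be read against the same 6.41% of all genes. Of 38 genes of PI3K, AKT and mTOR, GSK3A (0.38) and EIF4EBP2 (0.37), targets of that pathway, rose and PDPK1, the kinase that activates AKT (-0.45), fell in the authors' deposited table. Of 38 genes of catenins and the WNT core, CTNND1 (1.75), the coactivator gene BCL9L (0.49) and the receptor gene LRP5 (0.45) rose in the authors' deposited table, and none fell by DESeq2 (5 at an unadjusted p under 0.05). Of 47 chromatin genes mutated in lymphoma, HDAC7 (0.48) and KMT2B (0.32) rose, and NSD2 (-0.41), SMARCA2 (-0.36) and IDH1 (-0.35) fell in the authors' deposited table. Of 46 traffic GTPases and zinc transporters, SLC39A6 and RAB4B, given above, RAB5A (-0.59) and RAB1A (-0.56) fell in the authors' deposited table, and none rose by DESeq2 (8 at an unadjusted p under 0.05). Of 31 immediate early genes, BTG2 and KLF6 fell and none rose by DESeq2 (1 at an unadjusted p under 0.05). Of 16 housekeeping genes POLR2A fell by 0.34 in the authors' deposited table, and ACTB (0.26) and GAPDH (-0.16) were not called.

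Markers of the B lineage had high values, and those of other lineages low ones. The summed values with scrambled and FOXO3 shRNA were 39439 and 40730 for 7 B cell markers, 23762 and 21525 for 4 germinal centre markers and 34699 and 33696 for 4 plasma cell markers. JCHAIN gave 29752 and 28750 of the plasma cell sum in the authors' deposited table. CD79A had 11316 and 13110, CD79B 10675 and 9778, and CD22 1219 and 883.7 in the authors' deposited table. Of the B cell markers 4 were above 0 and 3 below on the log2 scale, from -0.46 to 0.27. None of 7 B cell markers was called by DESeq2 (1 higher and 1 lower at an unadjusted p under 0.05). The summed values of 6 T cell markers were 4.88 and 5.07, of 5 natural killer markers 59.7 and 58.3 and of 9 myeloid markers 197 and 207, with none called by DESeq2 (1 myeloid marker higher at an unadjusted p under 0.05). The sums were 0.490 and 0.496 for 2 erythroid markers and 92.8 and 107 for 5 markers of epithelial or fibroblast-type cells. None of these was called by DESeq2 (0 at an unadjusted p under 0.05). The last 5 were COL1A1, VIM, KRT8, KRT18 and EPCAM. ITGAM gave 116 and 107.6 of the myeloid sum in the authors' deposited table. SDC1, the plasma cell marker CD138, stood at 1.60 and 1.40 in the authors' deposited table. CD3D, TRAC, S100A8, HBA1, HBA2 and COL1A2 have no row in the authors' deposited table.

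Most genes called in Namalwa were called in the same direction in another line. Each line has its own control libraries. Of the 400 genes that rose in Namalwa, 307 also rose in BL-41 (76.75% of 400, and 13.3% of the 2314 that rose there). The number in Jiyoye was 248 (62% of 400, and 17.0% of 1458). Of the 585 that fell, 430 also fell in BL-41 (73.5%, and 18.9% of 2277) and 319 in Jiyoye (54.5%, and 21.8% of 1461). Among all genes shared with Namalwa, 15.5% rose and 15.3% fell in BL-41, and 9.6% rose and 9.48% fell in Jiyoye. Rises in all 3 lines numbered 215 and falls 263, while 60 rises and 99 falls were called in Namalwa and in neither other line. Opposite calls were rare, with 5 against BL-41 and 9 against Jiyoye. They were YARS, SNRNP48, IRF4, IRF7 and ITGA3 in BL-41, and CTNND1, DOK3, TAPBP, MAST3, IRF7, SOGA1, FCER2, P2RX5 and KIFC2 in Jiyoye, of which those outside the named rule were chosen after their values were seen. The median change of the genes that rose in Namalwa was 0.42 there, 0.62 in BL-41 and 0.49 in Jiyoye.

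A z test on the recovered SEs compared the log2 fold change of each gene with that in the other lines, with Benjamini-Hochberg adjustment over all shared genes. Against BL-41, 1037 of 14789 genes differed (7.01%), 444 with the higher fold change in Namalwa (3%) and 593 with the lower (4.01%). Against Jiyoye, 410 of 14933 differed (2.75%), 162 higher (1.08%) and 248 lower (1.66%) in Namalwa. FOXO3 itself had -1.09 in Namalwa, -0.79 in BL-41 and -0.30 in Jiyoye, where it was not called, in the authors' deposited tables. Its difference from Jiyoye passed this test (-0.80, SE 0.22, adjusted p = 0.0174) and that from BL-41 did not (-0.30, SE 0.21, adjusted p = 0.486) in the authors' deposited tables. Each line's fold changes were moderated separately, so differences between lines on low values may be too small. That unequal knockdown stands beside every difference from Jiyoye, and its part in them was not tested.

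CTNND1 gave the clearest difference from Jiyoye. It rose by 1.75 in Namalwa and by 1.78 in BL-41 and fell by 0.43 in Jiyoye, a difference from Jiyoye of 2.18 (SE 0.23, adjusted p = 2.84e-16, z test) in the authors' deposited tables. HIST1H2BK rose by 4.01 in Namalwa, 3.97 in BL-41 and 2.27 in Jiyoye, a difference from Jiyoye of 1.74 (SE 0.21, adjusted p = 8.69e-13, z test) in the authors' deposited tables. DUSP11, an RNA phosphatase, and C2orf88, an anchor of protein kinase A, had 0.04 and -0.17 in Namalwa and fell in Jiyoye, to -1.77 and -2.25, in the authors' deposited tables. FCER2 fell by 0.46 in Namalwa and rose by 1.20 in Jiyoye, and TAPBP fell by 0.35 and rose by 0.62, in the authors' deposited tables. IRF2BPL had 0.22 in Namalwa and rose by 1.35 in Jiyoye in the authors' deposited tables.

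Differences from BL-41 were led by genes that rose more there. BCL9L rose by 0.49 in Namalwa and 2.17 in BL-41, a difference of -1.69 (SE 0.20, adjusted p = 4.58e-13, z test) in the authors' deposited tables. HELZ2, a nuclear coactivator that interferon induces, had -0.29 in Namalwa and rose by 1.61 in BL-41 in the authors' deposited tables. PTBP2, a splicing regulator (0.57 in Namalwa and 1.99 in BL-41), CDK11A, a cyclin-dependent kinase (0.28 and 1.71), and PITPNM1, a lipid transfer protein (-0.13 and 1.16), followed in the authors' deposited tables. JCHAIN had -0.05 in Namalwa and fell by 1.42 in BL-41, and MTHFD1L, an enzyme of mitochondrial folate metabolism, had 0.14 and fell by 1.10, in the authors' deposited tables. HIST1H1C rose by 2.70 in Namalwa and 4.72 in BL-41, a difference of -2.02 (SE 0.39, adjusted p = 4.95e-05, z test) in the authors' deposited tables. MYC had 0.15 in Namalwa and fell by 0.75 in BL-41, a difference of 0.91 (adjusted p = 0.00108, z test) in the authors' deposited tables. For MHC class II genes the fold change was higher in Namalwa than in BL-41 for 7 of 18, CD74 and HLA-DRA included (-0.37 for both in Namalwa, -1.09 and -1.19 in BL-41 in the authors' deposited tables).

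Some genes set Namalwa apart from both other lines. The test was passed against both lines, with the same sign, by 78 genes, 68 of them with means that reached 100 in each table. Of these 68, the fold change was the lowest in Namalwa for 45 and the highest for 23, and 16 were called and 52 not called in Namalwa, beside 9.61% called of all Namalwa genes whose mean reached 100. ETS1, a lymphoid transcription factor, had -0.21 in Namalwa and fell by 1.13 in BL-41 and 1.25 in Jiyoye in the authors' deposited tables. FURIN, a protease that matures secreted proteins, had -0.03 in Namalwa and rose by 0.82 and 1.32 in the authors' deposited tables. IRF7, the factor that amplifies interferon responses, fell by 0.46 in Namalwa and rose by 1.00 and 0.64 in the authors' deposited tables. Genes with 0.03 to 0.31 in Namalwa that rose in both other lines were NOL4L (1.05 and 1.05), MAP7D1 (1.11 and 0.92), INPP5E (1.23 and 1.50), IFFO2 (1.33 and 0.89) and SUN2 (1.27 and 0.73) in the authors' deposited tables. ITM2B had -0.17 in Namalwa and rose by 0.60 and 0.54, and SEL1L3 had -0.29 and fell by 1.15 and 1.09, in the authors' deposited tables. IRF4 lay between the lines, at -0.42 in Namalwa, 0.54 in BL-41 and -1.50 in Jiyoye in the authors' deposited tables.

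**Figure D5:**
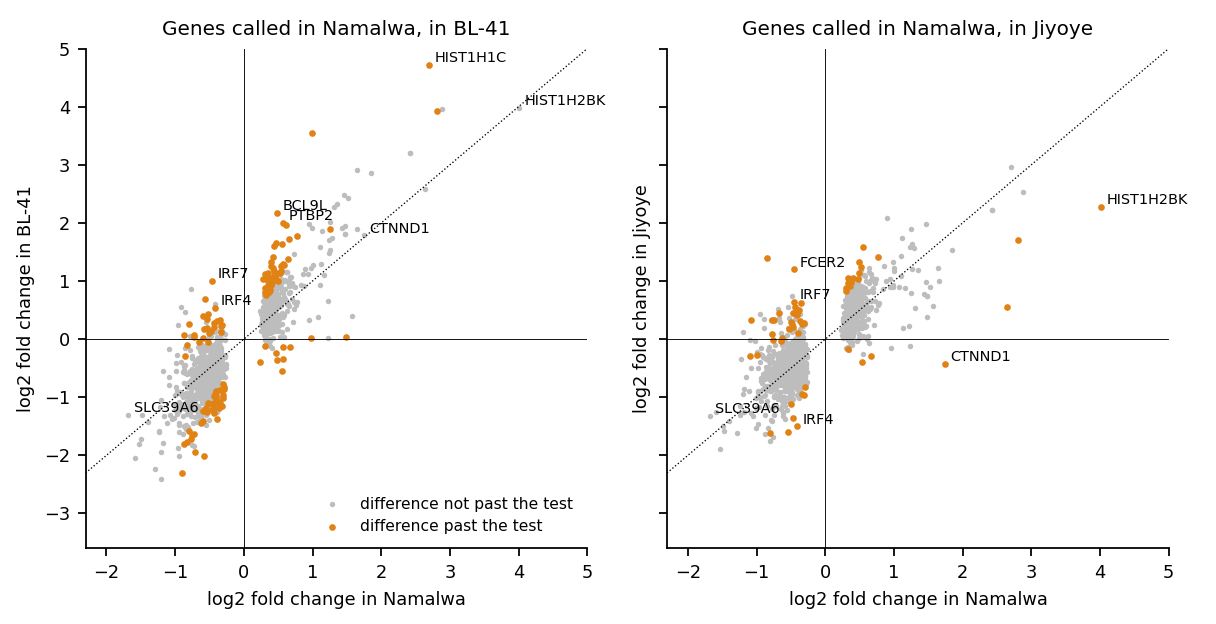
Each point is 1 gene called in Namalwa, with its deposited log2 fold change in Namalwa on the horizontal axis and in BL-41 (left) or Jiyoye (right) on the vertical axis; the dotted line marks equal values and orange points passed the test of the difference. HIST1H2BK lies near the line against BL-41 (4.01 and 3.97) and below it against Jiyoye (2.27), and CTNND1 is below 0 in Jiyoye (-0.43).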

How the data were processed

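RNA was sequenced from 3 libraries with scrambled and 3 with FOXO3 shRNA in each of 3 lines, as oligo-dT mRNA libraries. Bowtie2, RSEM and DESeq2 are named per the submitters' processing notes, with the build hg38, and read filtering with SOAPnuke per the series' design text; versions are not given in the sources used here. The authors deposited 1 table per line, with a normalised signal per arm, a log2 fold change, a p-value, an adjusted p-value and a transcript length. Depth per library was not analysed here, so no interval from counts is given. Recomputed adjusted p-values and arm ratios matched the deposited ones within 3.56e-15 and 1.34e-14 in Namalwa. The deposited arm ratio equals the moderated fold change, and arm values therefore carry that moderation.

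The call was a deposited adjusted p under 0.05 over all genes. The SE was recovered as the size of the log2 fold change over the normal quantile of its p-value. Differences between lines were tested with a two-sided z test and Benjamini-Hochberg adjustment. On simulated data with 200 changed genes (log2 change of 1), this test recovered 84.5% for Namalwa minus BL-41 (14789 genes), with 13 false calls. For Namalwa minus Jiyoye (14933 genes) it recovered 82.5%, with 11 false calls. Whether the recovered SEs are themselves correct was not tested by this simulation. The scripts ran in Python 3.11.15 with scipy 1.17.1, matplotlib 3.10.9, pandas 2.3.3 and numpy 2.4.6. Lists are described by counts and medians, without a test.

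The members and the 38 gene lists were chosen with earlier results of these data known. Named genes were the FOXO genes, the 15 largest called rises and falls where the mean reached 100, and the 10 called genes with the highest mean and a change of at least 0.5. They also took in up to 4 called members per direction of each list by adjusted p, any member of a list with at most 25 measured members, and the cell type markers. Further, they took in the 8 genes per other line with the smallest p of the difference, and 10 genes that differed from both lines. Alternatives were stricter calls, filters on the mean and recentring. Values of some single genes are not reported here.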

Additional observations from a re-analysis of the deposited data

Results flagged for a closer look

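In 1037 genes the log2 fold change differed between Namalwa and BL-41, and in 410 between Namalwa and Jiyoye, which is what brought the genes below to attention. Each value is the deposited log2 fold change in Namalwa minus that in the other line, and each passed the z test on recovered SEs with Benjamini-Hochberg adjustment over all shared genes. FOXO3 itself is among them, and the part of the unequal knockdown in the differences from Jiyoye was not tested.

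Against BL-41, the fold change in Namalwa was higher for JCHAIN (1.37), MTHFD1L (1.25), BORCS8-MEF2B (0.97), ETS1 (0.92), MYC (0.91), SEL1L3 (0.85), BLNK (0.85) and MEF2B (0.84). It was also higher than in BL-41 for HLA-DRA (0.82), ASNS (0.74), CD74 (0.72), TRIM22 (0.72), ORC3 (0.71), XBP1 (0.64), YARS (0.64), BACH2 (0.62) and SLC25A3 (0.57). It was also higher than in BL-41 for ERAP1 (0.55). Against BL-41, the fold change in Namalwa was lower for HIST1H1C (-2.02), HELZ2 (-1.91), BCL9L (-1.69), IRF7 (-1.46), CDK11A (-1.42), PTBP2 (-1.42), IFFO2 (-1.29), PITPNM1 (-1.29) and SUN2 (-1.13). It was also lower than in BL-41 for HIST1H2BD (-1.12), ATP6V0D1 (-1.06), IRF4 (-0.95), NOL4L (-0.95), INPP5E (-0.92), MAP7D1 (-0.88), FURIN (-0.85), KMT2B (-0.81) and ITM2B (-0.77). It was also lower than in BL-41 for MKNK2 (-0.73), POLR2A (-0.67), NME1-NME2 (-0.63), STAT2 (-0.62), PRPF4 (-0.61), HLA-E (-0.59) and ULK1 (-0.57).

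Against Jiyoye, the fold change in Namalwa was higher for CTNND1 (2.18), C2orf88 (2.08), DUSP11 (1.81), HIST1H2BK (1.74), HIST1H2BD (1.10), IRF4 (1.09), RRM2 (1.05), ETS1 (1.04) and SEL1L3 (0.79). It was also higher than in Jiyoye for BLNK (0.65) and HDGF (0.62). Against Jiyoye, the fold change in Namalwa was lower for IFI44L (-2.24), FCER2 (-1.65), RASA4B (-1.41), FURIN (-1.35), INPP5E (-1.18), IRF2BPL (-1.12), NOTCH2 (-1.11), IRF7 (-1.09) and TAPBP (-0.97). It was also lower than in Jiyoye for NOL4L (-0.95), IFFO2 (-0.85), FOXO3 (-0.80), CD38 (-0.74), ITM2B (-0.71), MAP7D1 (-0.70), BTG2 (-0.65), BCL9L (-0.65) and ELOVL5 (-0.62). It was also lower than in Jiyoye for HELZ2 (-0.60), SUN2 (-0.59) and ULK1 (-0.56).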

How the results depend on the processing

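The counts depended on the threshold. At an adjusted p under 0.01, the genes called up in Namalwa numbered 194 and the genes called down in Namalwa 332, against 400 and 585 as reported, and 459 genes differed from BL-41 and 166 from Jiyoye, against 1037 and 410. When the change also had to reach 1 on the log2 scale, 36 rose and 27 fell. Counts with a filter on the mean and with recentring on the median stayed within 1.5 times the reported ones. Recentring left direction and call the same for all 359 named genes. With adjustment over the genes whose mean reached 100, 299 of the 359 kept theirs, and XPO1, ID3, MCL1, SDHA and CDK11A passed the threshold. Named genes with a mean under 100 lay outside that adjustment and were not checked by it. No paired analysis was possible because the tables give 1 value per arm and none per library. For the same reason no library could be left out in turn, so whether 1 library decides any call, HIST1H1C and the other histone genes included, is not known. Genes with low values were seldom called.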

Other observations

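Of the 985 called genes, 56 had a mean under 100, and 28 of these rose and 28 fell; 11 of them were histone genes from the list above. The others named here were chosen after their values were seen. FBLN5, an elastic fibre protein, went from 27.3 to 76.5 in the authors' deposited table (log2 1.49, recovered SE 0.30, adjusted p = 7.77e-05 by DESeq2). HIST2H3PS2, an H3 gene outside the list, went from 17.4 to 47.9 in the authors' deposited table (1.46, recovered SE 0.34). CRABP2, a retinoic acid binding protein, rose by 1.35, NHLH1, a helix-loop-helix factor, by 1.29 and SOX7, an endothelial factor, by 1.22 in the authors' deposited table. AHRR, the repressor of the aryl hydrocarbon receptor, rose by 1.07 and GIMAP4, a lymphoid GTPase, by 1.10 in the authors' deposited table. MMP14, a membrane-bound matrix protease, went from 43.3 to 18.6 in the authors' deposited table (-1.22, recovered SE 0.34), and MYL4, a myosin light chain, fell by 1.21. SEMA6C, a semaphorin, fell by 1.24, C1RL, a complement protease, by 1.20 and WNT16, a WNT ligand, by 0.79 in the authors' deposited table.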
